A study of Mus musculus with 4 samples.

Results

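The genes described here are the small GTPases of the Rab, Arf, Arl and Sar1 families, which direct membrane traffic. They were chosen by gene symbol alone, as probe sets that the platform annotation assigns to 1 gene whose symbol begins with Rab or Arl and a digit, or with Sar1, or is one of Arf1 to Arf6. They numbered 50 of the 7577 genes with values, measured by 64 of 10649 probe sets. The symbols also took in 7 genes that encode no GTPase but a partner, an effector or an opposite-strand transcript, and these are kept apart, which left 43 GTPase genes. Peritoneal macrophages from mice labelled PPARg WT (called WT below, 2 arrays) were compared with those from mice labelled PPARg KO (KO, 2 arrays), both of mixed strain (129/SV with C57BL/6). Pparg encodes a nuclear receptor that is activated by lipids. In both genotypes the cells had been drawn into the peritoneum with 2.5 ml of thioglycollate at 3% and collected on day 3, and they were then cultured for 24 h in 0.5% serum with no ligand or stimulus. The labels give no knockout allele, Cre driver, age or sex, nor whether separate mice supplied the arrays. The sample descriptions of replicate 2 carry the suffix dup, so p-values measure only array-to-array spread, which could be technical. The 4 arrays are 1-colour Affymetrix arrays, and the small number limits the precision.

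A Rab or Arf protein works as a switch. An exchange factor loads it with GTP, which lets it sit on a membrane and recruit coats, tethers and motors, and a GTPase-activating protein turns it off. Each compartment carries its own set: Rab5 and Rab7 mark early and late endosomes, Rab11 recycling endosomes, Sar1 and Rab1 the exit from the endoplasmic reticulum, Arf1 and Rab6 the Golgi, and Rab3, Rab8, Rab10 and Rab27 the vesicles that fuse with the cell surface. In macrophages the endosomal set also governs how phagosomes mature, and the secretory set how cytokines and surface receptors are delivered. Activity is controlled largely through the bound nucleotide, so a transcript level is not a measure of the active protein. Members were sorted by the route they are best known for, although several act on more than one.

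No GTPase or partner gene passed the test for a difference between KO and WT. Each probe set was tested with limma on the log2(signal + 16) scale, and a call needs a Benjamini-Hochberg adjusted p under 0.05 over all 6389 probe sets tested. Folds below, the 1.5-fold limits included, are of signal + 16 and not of the signals themselves. Of the 47 member probe sets bright enough to be tested (42 genes), 0 rose and 0 fell, where 3.55% of all tested probe sets were called, 1.02% higher and 2.54% lower in KO. At an unadjusted p under 0.05 there were 2 members, against 9.47% of all tested probe sets. Without variance moderation limma called 0 of all 6389 probe sets, so that fit says nothing of the members in particular. At an unadjusted p under 0.05 it gave 388 of them, with 2 members (Arf3 and Rab3a) that differ from the 2 above (Rab3d and Rab34). The median log2 fold change of the members, KO minus WT, was -0.03, and that of all tested probe sets -0.02. The KO and WT arrays did not overlap at 11 members, against 32.4% of all tested probe sets. For 46 of the 47 members the 95% interval of the difference lay inside 1.5-fold in either direction. The exception was Rab3d, whose interval reached 1.51-fold lower. These intervals use a spread pooled over probe sets of like brightness, so a member more variable than its neighbours has a wider interval than stated.

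**Figure D1:**
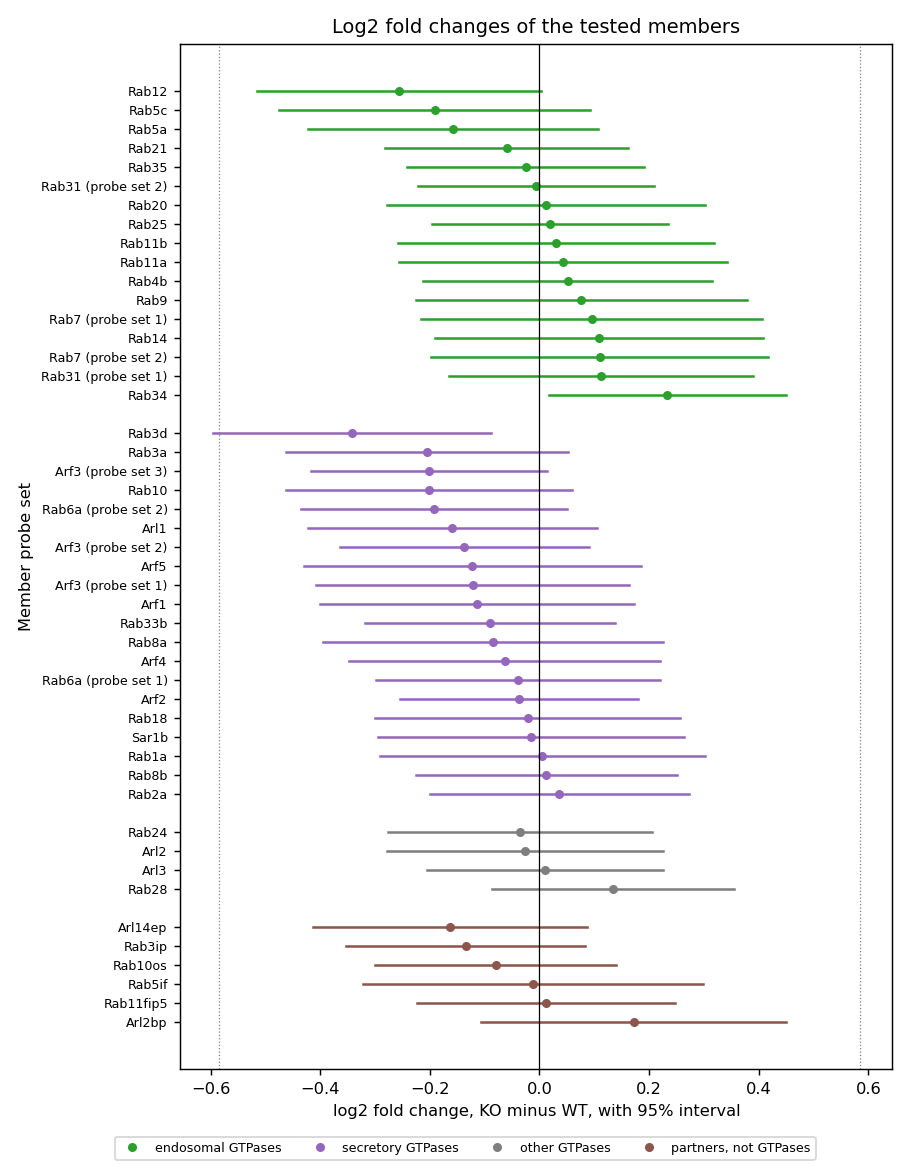
Log2 fold change (KO minus WT, horizontal axis) of the 47 tested member probe sets, with points for the estimate, bars for the 95% interval, colours for the route and dotted lines at 1.5-fold. Every interval but those of Rab3d and Rab34 includes 0, and only that of Rab3d crosses a dotted line. Probe sets of 1 gene are numbered from the brighter to the dimmer.

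The start sites of the 3 members with the lowest unadjusted p are shown so that their promoters can be compared. They come from RefSeq (GRCm38.p6) and run from 250 bases before to 50 after the first start listed, with the GC box (GGGCGG, either strand), a site for Sp1-type factors, in capitals. Rab3d lies at chr9:21918134-21918433 on the minus strand, Rab12 at chr17:66519621-66519920 on the minus strand and Rab34 at chr11:78188177-78188476 on the plus strand.
Rab3d: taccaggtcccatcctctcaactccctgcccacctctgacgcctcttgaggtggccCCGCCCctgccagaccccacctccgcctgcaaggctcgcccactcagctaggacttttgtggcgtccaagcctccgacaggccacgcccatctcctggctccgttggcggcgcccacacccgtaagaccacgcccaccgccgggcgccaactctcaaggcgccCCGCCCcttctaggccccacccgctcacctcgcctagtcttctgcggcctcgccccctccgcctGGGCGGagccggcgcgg
Rab12: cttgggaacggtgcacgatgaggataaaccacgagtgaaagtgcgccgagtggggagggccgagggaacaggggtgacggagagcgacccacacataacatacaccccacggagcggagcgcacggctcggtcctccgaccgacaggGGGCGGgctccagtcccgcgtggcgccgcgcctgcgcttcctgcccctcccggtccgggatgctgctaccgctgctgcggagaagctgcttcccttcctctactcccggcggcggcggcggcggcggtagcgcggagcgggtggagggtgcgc
Rab34: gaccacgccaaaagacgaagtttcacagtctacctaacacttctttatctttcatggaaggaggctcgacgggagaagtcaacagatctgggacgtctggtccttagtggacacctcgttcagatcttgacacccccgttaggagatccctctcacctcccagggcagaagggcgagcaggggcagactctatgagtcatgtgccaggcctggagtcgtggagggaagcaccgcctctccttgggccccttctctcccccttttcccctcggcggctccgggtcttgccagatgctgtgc
The Rab3d window holds 3 GC boxes and the Rab12 window 1, at a G and C content of 71.0% and 70.7%, and the Rab34 window holds 0 at 58.0%. Promoter windows were matched for 46 of the 50 member genes. A GC box stood in at least 1 window of 36 of the 46, against 38.2% of all 27025 genes with promoter windows. These 27025, also the reference for the sites below, were not limited to genes with values on the arrays, so the sets are unlike. It was found in 13 of 17 endosomal and 13 of 17 secretory genes, so the routes had the same share. The perfect direct repeat of AGGTCA with 1 base between, the type of site bound by PPARγ with RXR, was found in 0 of the 46 on either strand, and in 0.0481% of all genes. The single half-site stood in 4 of the 46 (Rab31, Rab3il1, Arl14ep and Rab10os) against 18.1% of all genes. A match describes letters in a short window, and its absence says nothing of binding elsewhere.

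The arrays differ in ways that touch these values. KO replicate 2 read higher than KO replicate 1 at 38 of the 47 members and at 71% of all tested probe sets. WT replicate 2 exceeded WT replicate 1 at 24 members, against 53% of all tested. Pparg itself, on 1 probe set, read 61.1 and 73.1 in WT and 43.0 and 40.6 in KO, below the antisense control median of every array, and the labels do not say which part of the gene was deleted. Of 10 macrophage markers, 8 exceeded the highest antisense control on all 4 arrays, and of 6 T and NK cell markers 0 did. The other 2 macrophage markers were called, Mrc1 higher and Mertk lower in KO, and exceeded that control on 2 and 3 arrays. Summed fibroblast and mesothelial markers (10 measured) read 2186 and 2141 in WT and 2723 and 3121 in KO, where Dcn and Sparc rose. Of these 10, 5 exceeded the highest antisense control on all 4 arrays, and Sparc did so on 1 array only. Summed neutrophil markers (9 measured) read 1314 and 1377 in WT and 1143 and 1144 in KO, where S100a8 fell. Of these 9, 2 exceeded the highest antisense control on all 4 arrays, S100a8 and Camp. S100a8 read 516.9 and 542.2 in WT and 330.8 and 370.2 in KO. Camp read 213.6 and 214.3 in WT and 212.6 and 197.6 in KO. Of the other lists, B cell markers exceeded that control at 2 of 5, dendritic cell markers at 2 of 5, mast cell markers at 1 of 5, eosinophil markers at 0 of 3 and platelet markers at 1 of 1, and none of their tested members was called. The part of these cells in the results below was not tested, and in such bulk samples fewer cells of a type and less RNA per cell cannot be told apart. The balance of calls is not firm: 65 probe sets were higher and 162 lower as deposited, against 170 and 249 after quantile normalization. The KO arrays move it further, to 127 higher and 124 lower without KO replicate 1 and to 42 and 285 without KO replicate 2.

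Endosomal GTPases had similar signals in both genotypes. Of 17 tested probe sets (15 genes), 11 had the higher mean in KO and 6 the lower, where 57.9% of all tested probe sets had the lower mean. After quantile normalization, median centring or cyclic loess, 13 had the higher mean and 4 the lower. The median log2 fold change was 0.03, with a range from -0.26 to 0.23. The KO arrays lay wholly below the WT arrays at 2 of the 17 and wholly above at 2, where these shares were 21.1% and 11.3% of all tested probe sets. Without KO replicate 2 the median turned to -0.02, where that of all tested probe sets was -0.06.

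Rab5 proteins bring endocytic vesicles to the early endosome and fuse them there. Rab5a read 474.1 and 370.9 in WT and 378.1 and 370.7 in KO, so that 1 WT array stood above the other 3. The log2 difference was -0.16 with an SE of 0.13 (adjusted p = 0.98). Without WT replicate 1 it was 0.01. Rab5c read 600.4 and 576.3 in WT and 498.0 and 529.0 in KO. Both of its KO arrays lay below both WT arrays, and the difference was -0.19 on the log2 scale (SE 0.14, adjusted p = 0.92). Rab5b was too dim to be tested, at 102.0 and 98.6 in WT and 97.6 and 92.3 in KO.

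The other early endosomal members are tied to uptake and phagosomes. Rab20, which acts on early endosomes and phagosomes, read 613.8 and 626.0 in WT and 615.5 and 635.0 in KO, and its 95% interval ran from -0.28 to 0.30 on the log2 scale. Rab21, a regulator of integrin uptake, read 205.1 and 210.7 in WT and 189.1 and 208.9 in KO. For both genes the genotypes overlapped. Rab31, which works between the Golgi and endosomes, read 443.7 and 502.0 in WT and 476.6 and 548.9 in KO with its brighter probe set, and its dimmer one gave a log2 fold change of -0.01. Rab34, known from macropinosomes, phagosomes and the Golgi, read 137.6 and 146.0 in WT and 161.4 and 177.9 in KO. This was the largest positive difference among the tested members, with both KO arrays above both WT arrays (log2 fold change 0.23, SE 0.11, unadjusted p = 0.034, adjusted p = 0.42). Only 2 of its 4 values exceeded the highest antisense control of their array.

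Late endosomal and lysosomal members included the brighter probe sets of the endosomal group. Rab7, which drives the change from early to late endosome and the fusion with lysosomes, has 2 probe sets. The first read 1649.8 and 1601.8 in WT and 1547.9 and 1951.5 in KO, and the second 1144.2 and 929.2 in WT and 1046.9 and 1185.3 in KO. On both probe sets the genotypes overlapped, with log2 fold changes of 0.10 and 0.11 and 95% intervals from -0.22 to 0.41 and from -0.20 to 0.42. Without KO replicate 2 the first turned to -0.07. Rab9, which returns receptors from late endosomes to the Golgi, read 874.7 and 793.7 in WT and 891.0 and 867.9 in KO, again overlapping. Rab12, linked to the sorting of receptors to lysosomes, was the endosomal member with the lowest log2 fold change. It read 409.1 and 395.5 in WT and 310.7 and 359.2 in KO, both KO arrays below both WT arrays (log2 fold change -0.26, SE 0.13, adjusted p = 0.55).

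Recycling members return membrane and receptors to the cell surface. Rab11a read 825.4 and 750.2 in WT and 782.8 and 840.7 in KO, and Rab11b read 568.9 and 626.2 in WT and 579.6 and 641.3 in KO. The log2 fold changes were 0.04 and 0.03, and the arrays overlapped for both genes. Rab14, which acts between the Golgi, early endosomes and recycling endosomes, read 788.5 and 739.5 in WT and 798.0 and 851.6 in KO. Both KO arrays lay above both WT arrays by a small margin (log2 fold change 0.11, SE 0.15). Its other 2 probe sets were too dim to be tested. Rab4b, of the fast recycling route, read 362.2 and 416.5 in WT and 381.6 and 425.7 in KO. Rab35 and Rab25 had log2 fold changes of -0.03 and 0.02, also with overlapping arrays. Rab25 is known as an epithelial gene, and 3 of its 4 values exceeded the highest antisense control.

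**Figure D2:**
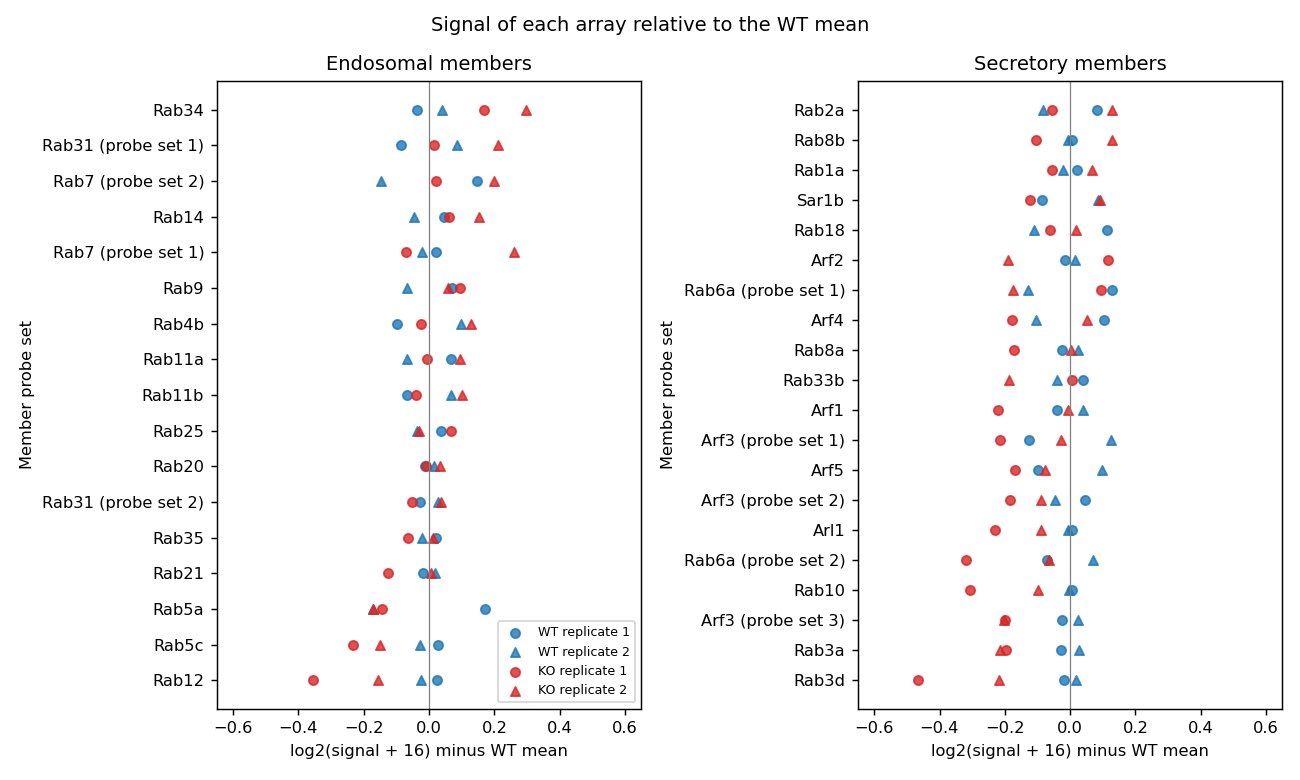
Signal of each array (log2(signal + 16) minus the WT mean, horizontal axis) for the 17 endosomal and 20 secretory probe sets tested, with WT in blue, KO in red, circles for replicate 1 and triangles for replicate 2. Endosomal members scatter around 0 in both genotypes, and among secretory members KO replicate 1 mostly sits to the left, farthest at Rab3d.

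Secretory GTPases had slightly lower means in KO, none past the threshold. Of 20 tested probe sets (17 genes), 17 had the lower mean in KO (14 after quantile normalization, 15 after median centring or cyclic loess) and 3 the higher, where 57.9% of all tested probe sets had the lower mean. Their median log2 fold change was -0.10, with a range from -0.34 to 0.04. The KO arrays lay wholly below the WT arrays at 6 of the 20 and wholly above at 0, where these shares were 21.1% and 11.3% of all tested probe sets. The shift was larger on KO replicate 1. Without that array the median was -0.07 with 13 lower, where that of all tested probe sets was 0.01. Without KO replicate 2 the secretory median was -0.18, against -0.06 over all tested probe sets. These counts describe the group and are not a test of it, because several probe sets share a gene and all share the same 4 arrays.

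The members at the exit from the endoplasmic reticulum were the flattest. Rab1a, which tethers vesicles that arrive at the Golgi, read 743.2 and 721.0 in WT and 703.6 and 767.5 in KO. Its log2 fold change was 0.01, with a 95% interval from -0.29 to 0.30. Rab2a, which acts at the same step, read 280.5 and 248.6 in WT and 253.6 and 290.1 in KO. Sar1b, the GTPase that starts the COPII coat, read 478.4 and 540.2 in WT and 465.3 and 543.0 in KO. Rab18, of the endoplasmic reticulum and lipid droplets, read 543.2 and 462.9 in WT and 479.8 and 508.4 in KO. In all 4 genes the arrays of the genotypes overlapped.

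Among members sorted to the Golgi, all 11 tested probe sets (8 genes) had the lower mean in KO, where 57.9% of all tested probe sets did. Of the 11, 10 did after quantile normalization and 8 without KO replicate 2. Their median log2 fold change was -0.12. Rab14, Rab31 and Rab34, also tied to the Golgi but sorted as endosomal, had log2 fold changes of 0.11, 0.11 and 0.23. The dimmer Rab31 probe set gave -0.01. Arf1, which recruits the COPI coat and clathrin adaptors, read 5347.2 and 5654.0 in WT and 4717.9 and 5469.1 in KO, overlapping (log2 fold change -0.11, SE 0.15). Arf3 differs little from Arf1 in its protein and has 3 probe sets. The brightest read 553.9 and 662.4 in WT and 519.7 and 593.3 in KO, and the next 251.6 and 235.0 in WT and 212.1 and 227.5 in KO. The dimmest read 167.9 and 174.0 in WT and 146.7 and 146.4 in KO, and exceeded the highest antisense control on 3 of the 4 arrays. The latter 2 had both KO arrays below both WT arrays, and the 3 log2 fold changes were -0.12, -0.14 and -0.20, with adjusted p of 0.62 at the dimmest. Arf5 read 1060.4 and 1216.7 in WT and 1009.1 and 1076.3 in KO, and Arf4 606.2 and 523.3 in WT and 496.0 and 584.0 in KO. Both overlapped between genotypes.

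Rab6a, which moves cargo within and out of the Golgi, gave unequal results on its 2 probe sets. The first read 408.3 and 339.3 in WT and 398.6 and 328.2 in KO, a log2 fold change of -0.04 that turned to 0.09 without KO replicate 2. The second read 296.4 and 328.7 in WT and 247.3 and 297.5 in KO, or -0.19 on the log2 scale (SE 0.12, adjusted p = 0.81). Arl1, which recruits golgin tethers to the trans-Golgi, read 419.9 and 416.6 in WT and 354.4 and 392.5 in KO, both KO arrays below both WT arrays (log2 fold change -0.16, SE 0.13, adjusted p = 0.98). Rab33b, a Golgi GTPase that also binds the autophagy factor Atg16l1, and Arf2 had log2 fold changes of -0.09 and -0.04. Arf2 turned to 0.12 without KO replicate 2, and all 4 of its values lay below the highest antisense control of their array.

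The members of exocytic vesicles and granules included Rab3d, the member with the lowest log2 fold change of all. Rab3d sits on secretory granules and is best known from exocrine and mast cells. It read 380.4 and 390.1 in WT and 274.3 and 329.1 in KO, so that both KO arrays lay below both WT arrays. The log2 fold change was -0.34 (SE 0.13, 95% interval -0.60 to -0.09, unadjusted p = 0.0083, adjusted p = 0.16), which does not pass. It passed with cyclic loess normalization (adjusted p = 0.036) and without KO replicate 2 (-0.47). It did not pass with median centring (adjusted p = 0.34), without KO replicate 1 (-0.22) or without WT replicate 1 or 2 (-0.36 and -0.32). Calls over all probe sets also fell without WT replicate 1 or 2. Of the mast cell markers measured, Tpsb2 read 326.5 and 302.2 in WT and 346.8 and 321.2 in KO, and Cma1, Cpa3, Kit and Fcer1a did not exceed the highest antisense control on all 4 arrays. Whether mast cells contribute to the Rab3d values was not tested.

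Rab3a, a relative known from synaptic vesicles, read 379.1 and 394.1 in WT and 335.3 and 331.0 in KO (log2 fold change -0.21, SE 0.13, adjusted p = 0.80). Its other probe set was too dim to be tested, at 37.3 and 41.3 in WT and 43.4 and 46.6 in KO. Rab10, which delivers membrane proteins to the surface, read 407.6 and 405.2 in WT and 325.8 and 378.8 in KO (-0.20, SE 0.13, adjusted p = 0.84). On the tested probe sets of both genes the KO arrays lay below the WT arrays. Rab8a, of the same delivery route, read 1260.2 and 1304.6 in WT and 1135.5 and 1285.9 in KO, and Rab8b read 271.4 and 269.2 in WT and 250.5 and 296.9 in KO. In these 2 genes the arrays overlapped, with log2 fold changes of -0.08 and 0.01.

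**Figure D3:**
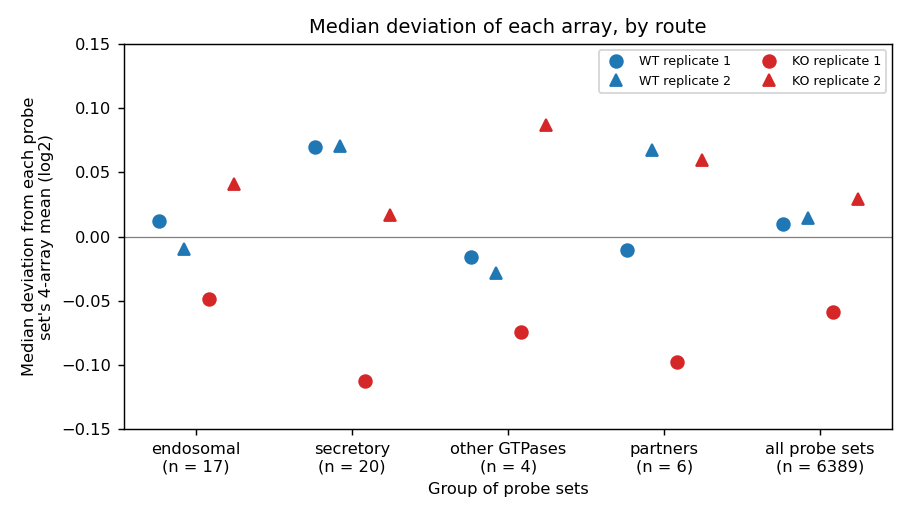
Median over probe sets of the deviation from each probe set's mean over the 4 arrays (log2, vertical axis), for each route and for all tested probe sets, with WT in blue, KO in red, circles for replicate 1 and triangles for replicate 2. Secretory members have WT medians of 0.07 and 0.07 and KO medians of -0.11 and 0.02, and KO replicate 1 is the lowest array in every group.

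Within each array, the endosomal and secretory medians lay closer together than the medians of the KO arrays did within either route. Between genotypes, the median log2 fold change was 0.03 for endosomal and -0.10 for secretory members. The median deviation of the endosomal members was 0.01 and -0.01 in WT and -0.05 and 0.04 in KO. That of the secretory members was 0.07 and 0.07 in WT and -0.11 and 0.02 in KO. Over all tested probe sets the KO values were -0.06 and 0.03. The genotypes overlapped on this measure among endosomal members and did not among secretory members, and the difference between the routes was not tested.

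The 4 other GTPases tested had log2 fold changes from -0.04 to 0.13. Rab28, linked to cilia, read 191.1 and 183.8 in WT and 198.9 and 215.9 in KO, with both KO arrays above WT (log2 fold change 0.13, SE 0.11, adjusted p = 0.98). Arl2, a regulator of tubulin folding, and Arl3, which releases lipid-modified cargo in cilia, had log2 fold changes of -0.03 and 0.01. Rab24, linked to autophagy, read 285.0 and 288.9 in WT and 255.6 and 305.4 in KO. The arrays of Arl2, Arl3 and Rab24 overlapped.

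Partners chosen through their symbols also showed no call. Arl2bp, which binds Arl2 and Arl3, read 435.9 and 500.5 in WT and 475.8 and 586.6 in KO (log2 fold change 0.17, SE 0.14, adjusted p = 0.97). The Arl14 effector gene Arl14ep read 328.7 and 356.8 in WT and 273.3 and 338.5 in KO (-0.16, SE 0.13). Rab3ip, an exchange factor for Rab8, had a log2 fold change of -0.13 and Rab11fip5, a Rab11 effector, one of 0.01. Rab5if read 1299.6 and 1420.5 in WT and 1230.5 and 1476.4 in KO, and the opposite-strand transcript Rab10os had a log2 fold change of -0.08. All 6 overlapped between genotypes.

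Of the 64 member probe sets, 17 were too dim to be tested, with signals from 12.4 to 130.4, and none of them exceeded the antisense control median on all 4 arrays. They left 8 genes with no test: Arf6, Rab4a, Rab5b, Rab17, Rab23, Rab33a, Rab3b and Rab3il1. Arf6, which recycles membrane at the cell surface and during phagocytosis, read 82.8 and 90.8 in WT and 86.3 and 85.4 in KO on 1 probe set and 104.3 and 84.6 in WT and 74.3 and 76.6 in KO on the other. In a fit without the filter the smallest adjusted p among the 17 was 0.18. The mean signal was lower in KO at 12 of the 17 and higher at 5. In that fit the dim probe sets of Rab3a, Rab2a and Rab11a had log2 fold changes of 0.14, 0.26 and 0.23. Those of Rab33b, Rab3ip and Arl14ep had -0.02, -0.28 and -0.005, and the 2 of Rab14 had -0.09 and -0.03. All these genes were tested on a brighter probe set. A further 5 member probe sets were blank on all 4 arrays, 1 each of Sar1a, Rab1a, Rab10, Sar1b and Rab26os.

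Genes that regulate or serve these GTPases were examined as a list of 250 symbols in 8 roles. Of the 133 measured, 120 were tested, each gene by its brightest probe set. The test called 1 higher (Snx5) and 3 lower in KO (Inpp5b, Stx2 and Stxbp3), and 116 did not pass, where 3.72% of all 5002 genes were called, 1.06% higher and 2.66% lower. The median log2 fold change was -0.04, against -0.02 over all genes tested.

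Of 21 tested Rab effectors and tethers, 1 was called higher and 1 lower in KO. Over all genes tested these shares were 1.06% and 2.66%. Snx5, a sorting nexin that bends endosome membrane with the retromer, lay below the highest antisense control (156.7) on WT replicate 2. Snx5 read 156.1 and 151.9 in WT and 207.1 and 260.1 in KO. It rose 1.46-fold (log2 fold change 0.55, SE 0.11, adjusted p = 7.61e-05) and missed the threshold without WT replicate 1 (adjusted p = 0.063) or WT replicate 2 (0.145). Its other 2 probe sets were too dim to be tested, with log2 fold changes of 0.14 and -0.06 in a fit without the filter. Inpp5b, a phosphoinositide phosphatase that binds Rab5 and other Rabs, read 831.4 and 835.1 in WT and 545.6 and 627.2 in KO. It fell 1.41-fold (-0.50 on the log2 scale, SE 0.15, adjusted p = 0.029), and its dimmer probe set gave -0.52 (adjusted p = 0.011). The call on the brighter probe set was lost without WT replicate 1 or 2 and without KO replicate 1. It was also lost with median centring (adjusted p = 0.098). The log2 fold change was -0.50 without WT replicate 1 or 2 and -0.40 without KO replicate 1. Calls over all probe sets also fell without WT replicate 1 or 2. The other 19 tested effectors and tethers did not pass, among them the Rab5 effector gene Eea1, which read 212.9 and 218.8 in WT and 185.3 and 193.6 in KO (adjusted p = 0.81).

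The role of SNAREs, which also held proteins that bind SNAREs, had 2 calls among 25 tested genes. Both were lower in KO, where 2.66% of all genes tested were called lower. Stx2, a plasma membrane syntaxin, read 1821.6 and 2040.8 in WT and 1206.2 and 1476.1 in KO and fell 1.44-fold (log2 fold change -0.53, SE 0.16, adjusted p = 0.029). Stxbp3, a Munc18 protein that binds surface syntaxins, read 276.6 and 223.8 in WT and 168.5 and 182.7 in KO and fell 1.38-fold (-0.47, SE 0.11, adjusted p = 0.0019). In both genes the KO arrays lay below the WT arrays. Stx2 missed the threshold without WT replicate 1 or 2, without KO replicate 1 and with median centring (adjusted p = 0.11). Stxbp3 missed it without WT replicate 1. As above, calls over all probe sets also fell without WT replicate 1 or 2. Without variance moderation 0 genes of the list passed, as did 0 of all probe sets. The other 23 tested genes of this role did not pass, among them Vamp4, at 293.2 and 227.0 in WT and 316.7 and 308.8 in KO (adjusted p = 0.42).

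The 6 remaining roles had 0 calls each. Their tested members numbered 9 for Rab chaperones and prenylation, 10 for Rab exchange factors, 7 for Rab GTPase-activating proteins, 6 for Arf exchange factors, 13 for Arf GTPase-activating proteins and 29 for Arf effectors and coats. Their medians lay between -0.06 and 0.00061 on the log2 scale. The nearest to a call were Arfgef1, an exchange factor for Golgi Arf proteins, at 326.6 and 328.0 in WT and 241.1 and 264.4 in KO (a difference of -0.35, adjusted p = 0.095), and Agfg1, at 239.2 and 257.1 in WT and 173.5 and 217.7 in KO (-0.33, adjusted p = 0.0999). In both, the KO arrays lay below the WT arrays. They were named after their values were seen. Gdi2, the chaperone that takes Rab proteins off membranes, read 1062.5 and 968.2 in WT and 1120.7 and 1147.0 in KO (a log2 difference of 0.16, adjusted p = 0.9997).

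**Figure D4:**
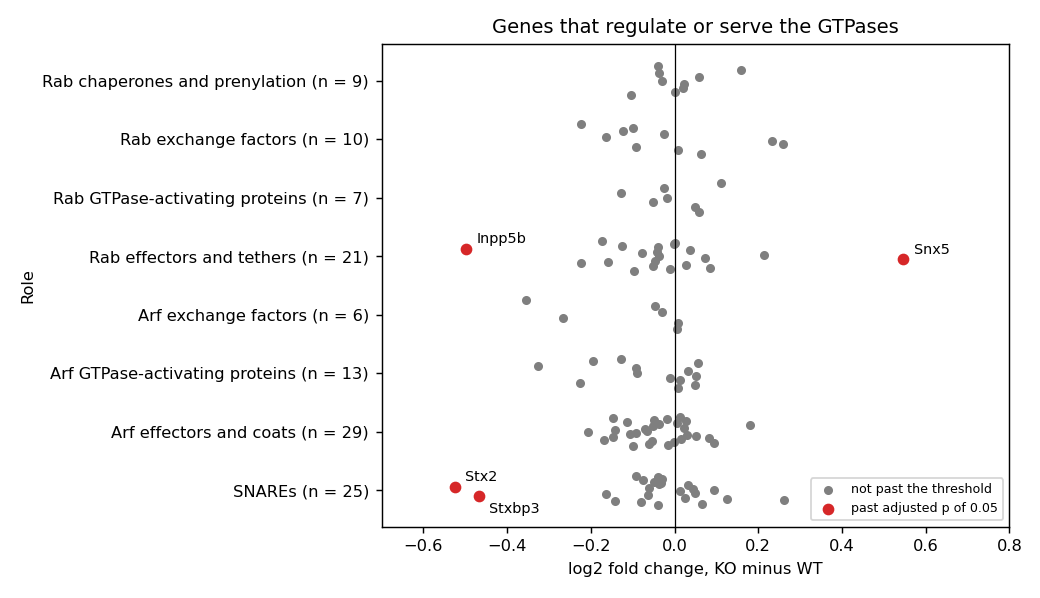
Log2 fold change (KO minus WT, horizontal axis) of the 120 tested genes that regulate or serve the GTPases, by role, with 1 point per gene and red for those past the threshold. The 4 red points are Snx5 above 0 and Inpp5b, Stx2 and Stxbp3 below it, while the grey points stay between -0.35 and 0.26.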

How the data were processed

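The authors' deposited table gives a linear intensity for every array and probe set, judging by its values. The methods of probe summary, background correction and scaling were not given in the sources used here. Among 12488 rows, 1780 were blank and 59 were controls. Of 10649 probe sets, 9389 had 1 gene in the platform annotation, 341 several and 919 none, and only those with 1 gene were named. Values were used as deposited, since array medians over all probe sets differed by less than 0.1 on the log2 scale (7.25 to 7.30). Over the tested probe sets alone, replicate 2 exceeded replicate 1 by a median of 0.115 in KO and 0.012 in WT. Probe sets above the 40th percentile of mean log2 signal (about 111) were kept. The genotypes were compared with limma 3.58.1 under R 4.3.3 (lmFit, eBayes with trend, two-sided). The fitted prior outweighed the 2 residual degrees of freedom entirely, which made the trend the only source of spread, and very small p-values rest on that. Replicate numbers do not pair samples by the labels. The code was tested on simulated data. Figures used matplotlib 3.10.9 in Python 3.11.15.

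The members, routes and gene lists were chosen with earlier results of these data known, from general knowledge. Named members are those with the 4 highest and 4 lowest log2 fold changes and the 4 highest signals per route, tested partners, genes with several probe sets, landmark genes and called list members; those beyond the rule were chosen after their values were seen. Some probe sets, whose ID ends in _s_at, _f_at or _r_at (among tested members and called regulators, 1 each of Rab7, Arf4, Inpp5b, Rab31, Rab33b, Sar1b and Rab3ip), can bind related transcripts. Alternatives were other scalings, filters, pseudocounts, variance settings and thresholds, the replicate block, each array left out and averaging over probe sets of a gene.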

Additional observations from a re-analysis of the deposited data

How the results depend on the processing

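Counts over all probe sets moved most: 227 as reported, 419 with quantile normalization, 435 with cyclic loess, 90 with an added 1.5-fold rule, 0 without moderation and 54 to 327 when an array was left out. Members called were 0, but 1 (Rab3d) with cyclic loess, and 0 to 1 when an array was left out. Leaving out an array gave a median of -0.025 to 0.058 for endosomal members, -0.18 to -0.071 for secretory members and -0.078 to 0.061 for other GTPases and partners. The median of all tested probe sets ran from -0.062 to 0.0086 in the same fits. Calls on the list of regulators were 4, against 2 with median centring, 0 without moderation, 0 with the 1.5-fold rule and 0 to 6 when an array was left out. Among the 47 tested members, changes of sign beyond 1 SE were those of Rab5a without WT replicate 1, and of Arf2, Rab6a and Rab7 (first probe sets of the latter 2) without KO replicate 2. When an array was left out, Rab5a ran from -0.328 to 0.013, Arf2 from -0.189 to 0.116, Rab6a from -0.174 to 0.095 and Rab7 from -0.070 to 0.261. Of 684 values of 43 single probe sets (Arf2 not among them) under alternatives, 663 kept their side of the threshold with no such sign change, 15 lost and 3 gained the call (Rab3d in all 3). The cause was not tested. When an array is left out, the genotype with 1 array is assumed to vary like the other.

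With the replicate number as a block, 480 probe sets and 1 member (Rab3d, -0.34, adjusted p = 0.0062) were called. Deviations of same-numbered arrays correlated at 0.42 over tested probe sets, which with 2 pairs is a hint from the data and not the design.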
